A study of Mus musculus with 6 samples.

Results

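Loss of the second Sin3a allele in germ cells was examined by comparing newborn testes that lack both alleles in germ cells (VSKO, 2 arrays) with testes that retain 1 allele there (HEMI, 2 arrays), 4 of the 6 arrays of the study. The arrays were chosen by their sample titles. RNA was taken from whole testes of male mice at postnatal day 0, of FVB.129/Sv mixed strain, with 1 animal per array and 2 animals per genotype. All 3 genotypes carried a Cre recombinase driven by Ddx4 (Vasa), a germ cell gene. VSKO mice had 1 deleted and 1 floxed Sin3a allele, HEMI mice 1 deleted and 1 intact allele, and WT mice, the third group, 2 intact alleles. VSKO and HEMI testes therefore share the deleted allele and the Cre, and differ in whether the remaining allele could be recombined. Cre acts in germ cells only, while the RNA is from every cell of the testis, so fewer germ cells and less RNA per germ cell cannot be told apart.

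SIN3A is a scaffold without enzymatic activity of its own that holds histone deacetylases HDAC1 and HDAC2 in a corepressor complex, which sequence-specific factors bring to chromatin. At birth the germ cells of the mouse testis are gonocytes, which lie in the cords among Sertoli cells and later give rise to spermatogonial stem cells. NANOS2 and ZBTB16 (PLZF) are known for their part in keeping male germ cells undifferentiated, whereas genes for the acrosome and the sperm tail are normally used much later, in spermatids.

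Signals are given on a log2 scale relative to the 75th percentile of the array, so that 0 is the signal of a spot brighter than 75% of the others, and a difference of 1 is a 2-fold difference. A feature was tested where both arrays of VSKO, or both of HEMI, had its probe well above background. This gave 24251 genes, a number that counts features without a symbol as genes. The 75th percentile of the processed signal was 693.9 to 857.1 intensity units on the 4 arrays, 62.37% to 64.53% of spots were well above background and none was saturated. Pearson's r across genes, which are not independent replicates, was 0.9868 between the VSKO arrays and 0.9881 between the HEMI arrays. All arrays lay on 1 slide. VSKO held positions 1 and 2 and HEMI positions 3 and 4 of the same row, so that position along the row and genotype cannot be told apart. Both WT arrays lay in another row, so in every comparison with WT slide row and genotype cannot be told apart either.

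The targeted gene was read first. The signal of Sin3a was 0.61 and 0.38 on the VSKO arrays, 0.89 and 0.89 on the HEMI arrays and 1.09 and 1.11 on the WT arrays. Both VSKO arrays lay under both HEMI arrays, and these under both WT arrays. The difference between VSKO and HEMI was -0.39 ± 0.13 (log2, SE of the fit), with an adjusted p of 0.519 in limma, so Sin3a did not pass the test. The sources used here do not say which exons are deleted, and a probe outside them would not report recombination. The 5 marker genes of this comparison and Sin3a are plotted array by array. On the array's design build (mm9) their probes lie at chr11:72158231-72158290 (Tekt1, minus strand), chr7:52462916-52462975 (Dkkl1, minus), chr7:19574205-19574264 (Nanos2, plus), chr9:48462419-48462478 (Zbtb16, minus), chr8:91551278-91551337 (Sall1, minus) and chr9:56975655-56975714 (Sin3a, plus).

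**Figure D1:**
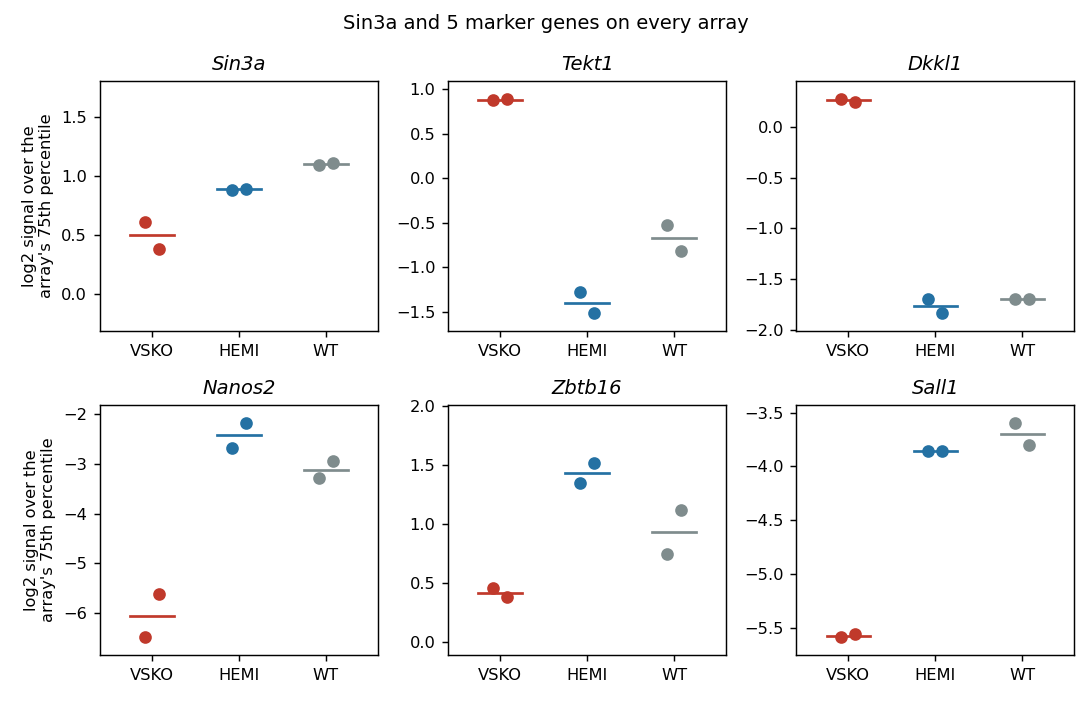
Signal of Sin3a and 5 marker genes (vertical axis, log2 signal over the array's 75th percentile) on the 2 VSKO, 2 HEMI and 2 WT arrays; each point is 1 array and each line the mean of its group, and the vertical axes differ between panels. Tekt1 and Dkkl1 lie higher on both VSKO arrays than on all others, and Nanos2, Zbtb16 and Sall1 lie lower.

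Of the 24251 genes, 35 passed an adjusted p under 0.05 in limma (0.144%), of which 25 were higher in VSKO (0.103%) and 10 were lower (0.0412%). Tekt1 of the sperm tail, Dkkl1 of the acrosome, the tubulin-binding Stmn4 and the transporter gene Slc29a4 were among those that rose, and the transcription factor gene Sall1 was among those that fell. A gene symbol was held by 25 of the 35, of which 19 rose and 6 fell. On both arrays of each group, 15 of the 35 were above background, while 13 of those that rose were near background in HEMI and 6 of those that fell were near background in VSKO. At an unadjusted p under 0.05 there were 1864 genes (7.69%), of which 1077 were higher (4.44%) and 787 lower (3.25%). The VSKO and HEMI arrays did not overlap for 18.8% of genes with VSKO higher and for 14.1% with VSKO lower.

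The calls rest on a spread estimated with the WT arrays included, since the 4 VSKO and HEMI arrays leave few degrees of freedom. With these 4 arrays alone limma called 0 genes (1723 at an unadjusted p under 0.05), as it did without HEMI replicate 2 (1681) or without either WT array (1723 for each), while leaving out VSKO replicate 1, VSKO replicate 2 or HEMI replicate 1 gave 39, 14 and 22 calls, of which 11, 10 and 6 were among the 35. An exact two-sided permutation of 2 arrays against 2 cannot go below p = 0.333. The p-values measure the spread between animals, of which there were 2 in each group.

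**Figure D2:**
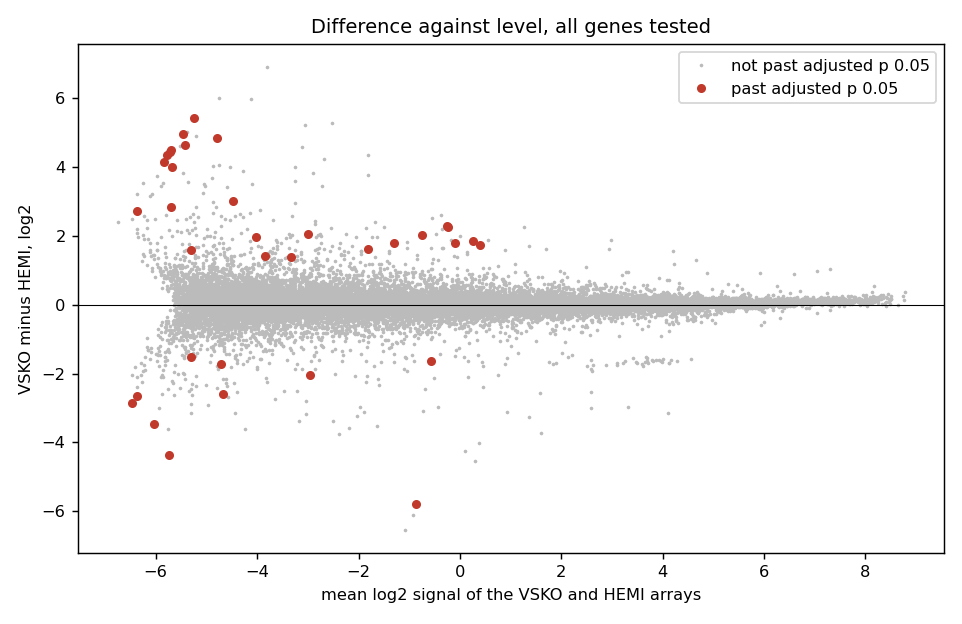
Difference between VSKO and HEMI (vertical axis, log2) against the mean signal of both groups (horizontal axis, log2 over the array's 75th percentile) for all 24251 genes tested, with the 35 that passed in red. Most genes that passed with a large difference are dim, and 15 of the 35 were above background on all 4 arrays.

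Among the genes that rose were several known from spermatids. The signal of Tekt1, a tektin that lines the doublet microtubules of cilia and flagella, was 0.88 and 0.89 on the VSKO arrays, -1.28 and -1.52 on the HEMI arrays and -0.53 and -0.82 on the WT arrays. The groups did not overlap, and VSKO was the highest. Tekt1 rose by 2.28 ± 0.16 (4.86-fold, adjusted p = 0.036 in limma). A second Tekt1 probe, at another position, differed by 2.18 and had an adjusted p of 0.039 where each probe was tested on its own.

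Dkkl1, an acrosomal protein also called soggy, had signals of 0.28 and 0.25 in VSKO, -1.69 and -1.84 in HEMI and -1.69 and -1.70 in WT. HEMI and WT lay side by side and VSKO stood apart from both. Dkkl1 rose by 2.03 ± 0.12 (4.09-fold, adjusted p = 0.0189 in limma). The mean of HEMI lay 0.07 under that of WT.

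Spata21, named for its association with spermatogenesis, rose by 2.27 ± 0.18 (adjusted p = 0.0394 in limma), from a mean of -1.37 ± 0.15 in HEMI to 0.90 ± 0.29 in VSKO (SD, n = 2). Its WT mean was 1.11 ± 0.09, close to that of VSKO, so that HEMI was the group that stood apart. Ssty1, a multicopy gene of the Y chromosome that is used in spermatids, had signals of -1.89 and -3.17 in VSKO and was not well above background on any HEMI or WT array. It was at least 9.68-fold higher in VSKO (adjusted p = 0.0394 in limma), a bound against the dimmest signal still called well above background in HEMI. That bound holds for the scaling used here only. The smallest log2 difference of Ssty1 over the alternative settings was 1.71, which is under it. Copies of Ssty1 can share signal on an array, and its other 2 probes were not well above background.

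Of the 25 measured genes of a list of spermatid, acrosome and sperm tail genes, 8 were higher at an unadjusted p under 0.05 (32.0%, against 4.44% of all genes) and 1 was lower (4.0%, against 3.25%). Tekt1, Dkkl1 and Ssty1 passed the adjusted test, though Ssty1, near background in HEMI, entered the list only through VSKO. Ldhc, the germ cell lactate dehydrogenase, differed by 0.86, Akap4, a scaffold of the fibrous sheath of the sperm tail, by 1.17, and Tnp1, a transition protein of spermatid chromatin, by 0.86, none of them past the adjusted threshold. The WT signals of Ldhc, -0.02 and -0.19, lay above those of VSKO, -0.31 and -0.26. HEMI, at -1.21 and -1.08, was the group that stood apart for Ldhc. The median difference of the list was -0.01, beside 0.02 for all genes tested. Crem, a regulator of spermatid genes, differed by -0.01, and the protamine Prm2 by -0.01.

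The region around the start of Tekt1 and Dkkl1 is printed because these genes rose with both groups well above background. Morn5 and Slc29a4, which also rose that way, are added for comparison. Each run covers 250 bases before and 50 after the start of a RefSeq transcript on GRCm38.p6, 5′ to 3′ along the gene, at chr11:72361833-72362132 (minus strand, the first of 2 Tekt1 entries), chr7:45211834-45212133 (minus), chr2:36049223-36049522 (plus) and chr5:142701851-142702150 (plus). Capitals mark the letters GGGCGG of the GC box and GTTGCC, 1 arm of the X-box, on either strand, and neighbouring GC boxes can overlap.
Tekt1: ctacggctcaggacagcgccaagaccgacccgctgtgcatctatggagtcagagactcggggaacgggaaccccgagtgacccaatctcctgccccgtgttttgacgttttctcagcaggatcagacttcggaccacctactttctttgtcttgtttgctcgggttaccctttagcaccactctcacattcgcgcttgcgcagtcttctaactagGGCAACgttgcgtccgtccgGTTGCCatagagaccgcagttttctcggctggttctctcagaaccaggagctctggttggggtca
Dkkl1: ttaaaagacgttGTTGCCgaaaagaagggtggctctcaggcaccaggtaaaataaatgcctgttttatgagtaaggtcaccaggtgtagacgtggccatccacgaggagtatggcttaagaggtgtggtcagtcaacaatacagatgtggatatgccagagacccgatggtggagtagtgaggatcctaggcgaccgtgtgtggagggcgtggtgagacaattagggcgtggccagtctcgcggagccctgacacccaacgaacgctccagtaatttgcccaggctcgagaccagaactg
Morn5: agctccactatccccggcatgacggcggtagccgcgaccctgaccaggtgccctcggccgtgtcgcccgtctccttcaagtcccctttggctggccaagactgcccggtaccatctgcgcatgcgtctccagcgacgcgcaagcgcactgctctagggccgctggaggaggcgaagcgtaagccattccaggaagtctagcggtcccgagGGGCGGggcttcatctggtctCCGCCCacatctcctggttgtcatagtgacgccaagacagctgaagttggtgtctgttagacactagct
Slc29a4: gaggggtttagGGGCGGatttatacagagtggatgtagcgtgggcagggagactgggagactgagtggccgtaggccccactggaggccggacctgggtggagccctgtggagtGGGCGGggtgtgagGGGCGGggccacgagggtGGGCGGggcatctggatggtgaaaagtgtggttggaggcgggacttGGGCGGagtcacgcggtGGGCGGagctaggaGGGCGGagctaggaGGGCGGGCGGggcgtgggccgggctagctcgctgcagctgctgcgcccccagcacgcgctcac

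Both strands were searched for the E-box CACGTG, the cyclic AMP response element TGACGTCA, the X-box and the GC box. GTTGCC was added after these had no match in Tekt1 or Dkkl1. Of the 25 genes with a symbol that passed, 22 had an entry among the 27025 promoters. An E-box was held by 1 of the 22 (4.55%, against 7.24% of all promoters), a cyclic AMP response element by 0 (against 1.88%), a full X-box by 0 (against 0.444%) and a GC box by 6 (27.3%, against 35.9%). GTTGCC was held by 3 of the 22 (13.6%, against 12.7% of all promoters), namely Tekt1, with 2 matches, Dkkl1 and Ccdc184. These shares lie near those of all promoters. Morn5 held 2 GC boxes and Slc29a4 held 9.

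The other genes with a symbol that rose and were above background on all 4 arrays were Slc29a4, Stmn4, Urah, Ccdc184, Morn5, Klf17 and Tmem63c. Slc29a4, a membrane transporter of monoamines and nucleosides, had signals of 1.22 and 1.13 in VSKO, -0.74 and -0.59 in HEMI and -0.58 and -0.33 in WT, and rose by 1.84 ± 0.14 (adjusted p = 0.0394 in limma). An unnamed probe that overlaps the Slc29a4 probe by 53 bases also passed, with a difference of 1.73, so these 2 of the 35 calls report the same stretch of RNA. A clone without a symbol, 1110035H17Rik, also rose with all 4 arrays above background, by 2.06 ± 0.17 (adjusted p = 0.0397 in limma). Stmn4, of the stathmin family that binds tubulin, had signals of -0.36 and -0.45 in VSKO and -2.27 and -2.14 in HEMI, and rose by 1.80 ± 0.12 (adjusted p = 0.0338 in limma). Its WT signals, -1.43 and -1.36, lay between the 2 groups.

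Urah, an enzyme of urate breakdown, had signals of 0.67 and 0.91 in VSKO and a mean of -0.99 ± 0.02 in HEMI (SD, n = 2), and rose by 1.78 ± 0.14 (adjusted p = 0.0394 in limma). A second Urah probe differed by 1.80. Morn5, a protein with MORN repeats, rose by 1.62, Ccdc184, a coiled-coil protein, by 1.95, Tmem63c, a membrane channel protein, by 1.39, and Klf17, a zinc finger transcription factor known from germ cells and the early embryo, by 1.43. On the probes used, every VSKO array lay above every HEMI and WT array for these 4 genes. A second Klf17 probe differed by 0.72 (adjusted p = 0.416 where each probe was tested on its own in limma), and its VSKO and WT arrays overlapped. Of the 25 genes that rose, the WT mean was nearer to HEMI for 22. For 12 of the 25, both the HEMI and the WT arrays were near background. For these 12 the nearness follows from the dim signal and says nothing about genotype.

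**Figure D3:**
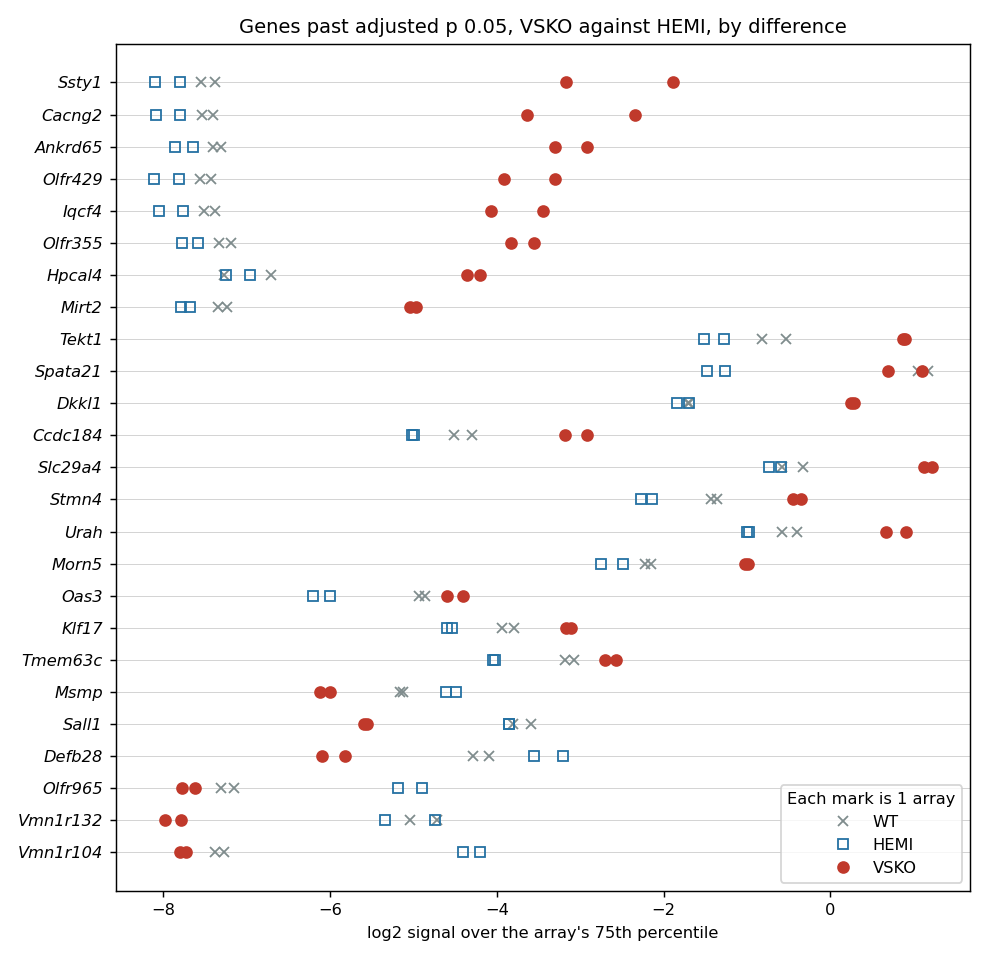
The 25 genes with a symbol that passed, ordered by their difference between VSKO and HEMI, with the signal on each array (horizontal axis, log2 over the array's 75th percentile); filled circles are VSKO, open squares HEMI and crosses WT. The genes at the top start from signals near -8 in HEMI, near background, whereas Tekt1, Dkkl1 and Slc29a4 are well measured in both groups.

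Several genes that rose were near background on both HEMI arrays. Their folds are bounds within the scaling used here, and alternative settings gave less. The smallest log2 difference over those settings was 1.13 for Ankrd65, 0.85 for Olfr355 and 0.49 for Hpcal4, each under its bound. Cacng2, an AMPA receptor subunit called stargazin, was at least 7.06-fold higher, and Hpcal4, a neuronal calcium sensor, at least 2.88-fold. Ankrd65, an ankyrin repeat gene, was at least 6.48-fold higher, Iqcf4, of a testis family with IQ motifs, at least 4.14-fold, and the olfactory receptor genes Olfr429 and Olfr355 at least 4.59-fold and 4.33-fold. The long noncoding RNA Mirt2 was at least 1.74-fold higher. Oas3, an interferon-induced enzyme, was at least 2.46-fold higher than in HEMI, although its WT signals of -4.93 and -4.86 lay near those of VSKO, -4.41 and -4.60.

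These large differences depend on how background is treated. Normexp background correction was run with an offset, which adds 50 intensity units to every corrected signal. With it, 18 of the 25 genes with a symbol that passed had a difference smaller by over 1.5 times. All 18 of these lost the call. The other 7 stayed within 1.5 times, namely Tekt1, Dkkl1, Spata21, Slc29a4, Stmn4, Urah and Morn5. An offset by itself shrinks differences between dim signals, and its part was not separated from that of the background correction. When only features above background on all 4 arrays were tested, 1 gene passed, and it was lower in VSKO. Of the 25 genes with a symbol that passed, 7 had another kept probe, and all 7 of these differed in the same direction. Dim probes that were not kept do not enter this count, and they did not show the same difference. Such a probe differed by -0.20 for Cacng2, by -1.07 for Iqcf4 and by 0.63 for Olfr965, against the direction of the probe used. The other Ssty1 probes differed by 0.0009 and -0.02.

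Of the 6 genes with a symbol that fell, Sall1 is the one known from germ cells. Sall1, a zinc finger transcription factor of the Spalt family, had signals of -5.59 and -5.56 in VSKO, -3.86 and -3.85 in HEMI and -3.59 and -3.80 in WT. The VSKO arrays were the lowest, and 1 of the 2 was well above background. Sall1 fell by 1.72 ± 0.13 (adjusted p = 0.0368 in limma), a size that rests on a signal near background in VSKO. With normexp background correction and its offset, which shrinks differences of dim signals, the difference was -0.54 (adjusted p = 0.299 in limma). It is also a marker of nephron progenitors and stood in that list too.

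Defb28, a beta-defensin, was at least 4.99-fold lower in VSKO on the probe used, again a bound within the scaling used here. A second Defb28 probe, above background on 1 VSKO array, differed by -1.39 ± 0.73 (adjusted p = 0.857 where each probe was tested on its own in limma). Msmp, a secreted microseminoprotein, was at least 2.36-fold lower, and the receptor genes Vmn1r104, Vmn1r132 and Olfr965 were lower by at least 3.14-fold, 1.88-fold and 1.88-fold. For Vmn1r104 and Olfr965 the WT arrays were near background as well, so that HEMI alone stood out. Vomeronasal and olfactory receptors form large families of similar sequence, and their probes may not tell members apart. The WT mean was nearer to HEMI for 5 of the 10 genes that fell, and 3 of the 10 were near background in both VSKO and WT.

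Other genes above background on all 4 arrays had large negative differences and did not pass. Rfx8, of the RFX family of transcription factors, had signals of -2.57 and -3.19 in VSKO, -0.79 and -0.81 in HEMI and -0.93 and -0.86 in WT, a difference of -2.08 ± 0.22 (adjusted p = 0.0634 in limma). Asb9, an ankyrin repeat and SOCS box gene, differed by -2.03 and Hmox1, the inducible heme oxygenase, by -1.65. Mcpt4, a mast cell protease, differed by -2.98 ± 0.57, but its HEMI arrays lay far apart, at 0.42 and -1.39. Its VSKO signals were -3.40 and -3.52, and its WT signals, -2.31 and -2.16, had a mean nearer to VSKO. Tmem59l, Marveld2, Vwa2 and Htr7 differed by -1.71 to -1.42. Prb1 differed by -1.66 (adjusted p = 0.073), and a second, dimmer Prb1 probe by -4.19, with an adjusted p of 0.0436 where each probe was tested on its own in limma.

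Nanos2 and Zbtb16 lay lower in VSKO without passing the adjusted test. Nanos2, an RNA-binding protein, had signals of -6.48 and -5.61 in VSKO, -2.68 and -2.17 in HEMI and -3.28 and -2.95 in WT. Nanos2 was near background on both VSKO arrays and well above it on the other 4. The difference was -3.62 ± 0.34, with a bound of at least 11.5-fold and an adjusted p of 0.056 in limma. Zbtb16, a transcriptional repressor, had signals of 0.45 and 0.38 in VSKO, 1.35 and 1.52 in HEMI and 0.75 and 1.12 in WT. VSKO lay under every other array, by -1.01 ± 0.17 against HEMI (adjusted p = 0.147 in limma).

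Of 27 measured gonocyte and spermatogonial stem cell genes, 6 were lower at an unadjusted p under 0.05 (22.2%, against 3.25% of all genes) and 4 were higher (14.8%, against 4.44%), with a median difference of -0.03. Lin28b, an RNA-binding protein, differed by -0.81, Ret, the GDNF receptor kinase, by -1.64 and Sall4 by -0.59. Utf1 and Id4, also used as markers of undifferentiated germ cells, differed by 0.77 and 0.51 in the opposite direction. For Lin28b and Sall4 both VSKO arrays lay under every HEMI and WT array. For Ret the VSKO and WT arrays overlapped, with means of -1.72 and -1.23. HEMI, with a mean of -0.08, was the group that stood apart for Ret. The VSKO and WT arrays of Utf1 overlapped as well, and HEMI lay under both. The pluripotency factor Pou5f1 differed by 0.14, Foxo1 by -0.03, Etv5 by 0.06 and Nanos3 by -0.07.

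Broad germ cell genes were measured in both groups. Ddx4, the helicase whose promoter drives the Cre, had signals of 1.73 and 2.08 in VSKO and 2.18 and 2.31 in HEMI, a difference of -0.34 ± 0.17. Dazl, an RNA-binding protein, differed by -0.09. Of 23 measured genes of this list, 5 were higher at an unadjusted p under 0.05 (21.7%, against 4.44% of all genes) and 2 were lower (8.70%, against 3.25%). Sycp3, of the synaptonemal complex, differed by 1.14 ± 0.14 (adjusted p = 0.0763 in limma), and Tex19.1 by 1.19 ± 0.17 (adjusted p = 0.128). Both genes lay higher on each VSKO array than on any HEMI or WT array.

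Among meiotic genes more were lower than higher. Of 26 measured, 7 were lower at an unadjusted p under 0.05 (26.9%, against 3.25% of all genes) and 2, Sycp3 and Syce3, were higher (7.69%, against 4.44%), and none passed the adjusted test. Spo11, which makes the meiotic double-strand breaks, differed by -1.01 and Hormad1, of the chromosome axis, by -0.56. Of 24 measured genes of the piRNA pathway, which silences transposons, 1 was higher (4.17%) and 2 were lower (8.33%) at that threshold, and the helicase gene Mov10l1 differed by -0.78. Of 17 DNA methylation genes 1 was higher and 1 lower (5.88% each). These counts, of 1 or 2 genes, are near the shares of all genes, 4.44% and 3.25%. Stra8, a retinoic acid target, differed by 0.27, and of 19 retinoic acid genes 1 was higher (5.26%, against 4.44%).

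Of the 23 measured members of the SIN3 complex, 2 were lower at an unadjusted p under 0.05 (8.70%, against 3.25% of all genes) and 0 were higher (against 4.44%). These were Sin3a and Kdm5a, a histone demethylase, which differed by -0.38. Sin3b, the paralog that can also hold the complex, differed by 0.01 ± 0.13, Hdac2 by -0.11 and Hdac1 by -0.24 ± 0.11 (adjusted p = 0.794 in limma). The probes of Hdac1 did not give the same size: its other 2 kept probes, which are dimmer, differed by -0.77 and -1.05, with adjusted p-values of 0.177 and 0.086 where each probe was tested on its own. Of 26 measured Polycomb genes 1, Bmi1, was lower at that threshold (3.85%, against 3.25%), with a difference of -0.43. A second kept Bmi1 probe, which is dimmer, differed by -0.10, and its VSKO and HEMI arrays overlapped.

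Neuronal, Hox and early embryo genes had shares of higher genes above that of all genes. Genes near background in HEMI, such as Cacng2, Elavl3, Hoxb1 and Cdx2, entered only through VSKO, so the filter set their direction. Of 22 measured neuronal genes 9 were higher at an unadjusted p under 0.05 (40.9%, against 4.44%) and 1 was lower (4.55%, against 3.25%), with a median difference of 0.22, and Cacng2 passed. The WT signals of Elavl3, -4.20 and -3.31, lay near those of VSKO, -3.80 and -2.98. Vgf, a neuropeptide precursor, had signals of -1.73 and -1.12 in VSKO, -3.65 and -3.67 in HEMI and -4.01 and -4.01 in WT, a difference of 2.24 ± 0.22 (adjusted p = 0.056 in limma). Nefm, a neurofilament, differed by 2.05, while the neuronal tubulin Tubb3 differed by -0.41.

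Of 30 measured Hox genes 6 were higher at that threshold (20.0%, against 4.44%) and 0 were lower (against 3.25%), none past the adjusted test. Hoxb1 had signals of -3.74 and -3.44 in VSKO and was near background on the HEMI and WT arrays, with a bound of at least 4.64-fold (adjusted p = 0.056 in limma). Hoxb8 had signals of 0.23 and 1.19 in VSKO, -1.34 and -2.30 in HEMI and -2.53 and -2.57 in WT. The higher genes other than Hoxd10, which are Hoxb1, Hoxb4, Hoxb8, Hoxb9 and Hoxb13, belong to the HoxB cluster.

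Of 19 measured genes of the primitive streak and early embryo 6 were higher (31.6%, against 4.44%) and 1 was lower (5.26%, against 3.25%), with a median difference of 0.53. The mesoderm factor T (brachyury) differed by 1.44, Cdx1 by 0.82 and Fgf8 by 1.17. For Cdx1 the VSKO arrays, at -1.25 and -1.55, overlapped the WT arrays, at -1.64 and -1.37. HEMI, at -2.30 and -2.15, was the group that stood apart for Cdx1. Of 13 measured granulosa and ovary pathway genes 4 were higher (30.8%, against 4.44%) and 2 were lower (15.4%, against 3.25%). Zp3, of the egg coat, differed by 1.66 ± 0.17 (adjusted p = 0.0634 in limma) and Figla, an oocyte transcription factor, by 1.00.

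Of the 26 measured genes of a list of interferon-induced genes, 4 had a positive difference (15.4%, against 55.4% of all genes). At an unadjusted p under 0.05, 6 were lower (23.1%, against 3.25%) and 0 were higher (against 4.44%), and the median difference was -0.31. Rtp4 had signals of -0.93 and -1.11 in VSKO and 0.01 and -0.16 in HEMI, a difference of -0.94 (adjusted p = 0.172 in limma), and Isg15, a ubiquitin-like modifier, differed by -0.75. Oas3, which rose, is also interferon-induced but was not a member of this list. It goes the other way, so the count of 0 higher holds for the listed genes only.

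**Figure D4:**
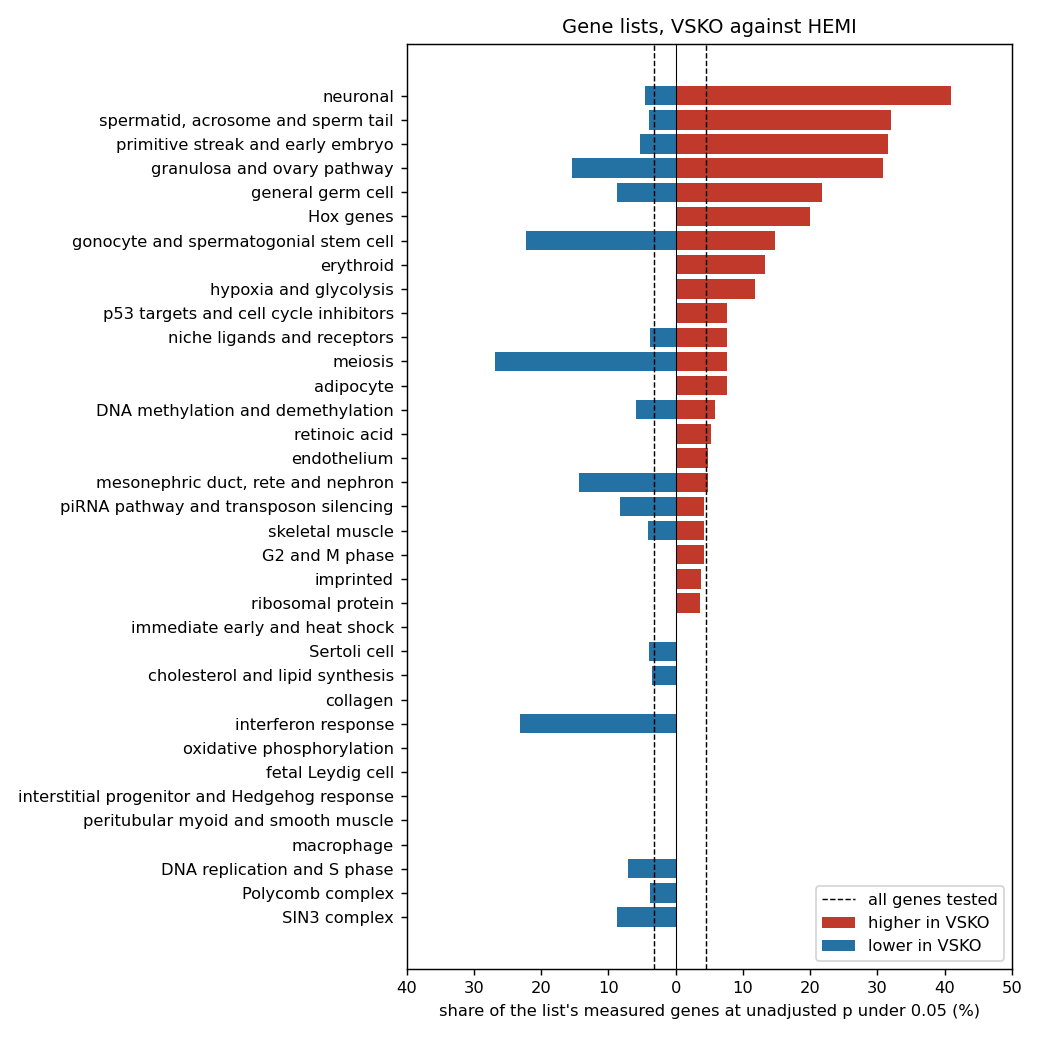
Share of the measured genes of each of 35 lists (horizontal axis, %) at an unadjusted p under 0.05, with genes higher in VSKO to the right and lower to the left; dashed lines mark 4.44% and 3.25%, the shares among all 24251 genes tested. Neuronal, spermatid and early embryo genes reach 40.9%, 32.0% and 31.6% on the right, and meiosis reaches 26.9% on the left. Granulosa and ovary pathway genes reach 30.8% on the right, and interferon and mesonephric duct genes reach 23.1% and 14.3% on the left. Fetal Leydig, peritubular myoid, interstitial and macrophage lists have no bar.

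Lists of resident somatic cells held few genes past the unadjusted threshold. At an unadjusted p under 0.05, 0 of 19 fetal Leydig cell genes, 0 of 19 peritubular myoid and smooth muscle genes, 0 of 26 interstitial genes and 0 of 21 macrophage genes differed in either direction, and none passed the adjusted test in limma. Of 25 Sertoli cell genes 1 was lower (4.0%, against 3.25%). Sox9, which directs Sertoli cell fate, differed by 0.02, Amh, the Müllerian hormone, by 0.11, and Star, the carrier that feeds cholesterol to steroid synthesis, by 0.11. Of 24 proliferation genes of G2 and M phase 1 was higher (4.17%, against 4.44%), and of 28 S phase genes 2 were lower (7.14%, against 3.25%). Mki67 differed by 0.16 and the p53 target Cdkn1a by 0.22.

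Genes of neutrophils and their granules were not among the lists, and those given here were chosen after their values were seen, so they get no count. The signal of S100a9, an abundant protein of neutrophils and monocytes, had a mean of 3.93 in VSKO, with 2.28 and 1.82 in HEMI and 1.82 and 1.88 in WT. Both VSKO arrays lay above all others, and the difference was 1.89 ± 0.18 (adjusted p = 0.056 in limma), short of the threshold. Its partner S100a8 differed by 1.70, the granule genes Camp and Ngp by 1.65 and 2.45, Retnlg by 1.95, Ifitm6 by 2.03, and the stefin genes Stfa2, Stfa2l1 and Cstdc4, whose probes may share signal, by 1.89, 1.98 and 1.89. Other neutrophil genes did not go with them, among them Csf3r at 0.04, Elane at 0.20, Ly6g at 0.15, Mpo at -0.48 and Mmp9 at -1.02. None of these genes passed, and the part of neutrophils in the other differences between VSKO and HEMI was not tested.

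Markers of tissue around the testis were read as well. Of 24 skeletal muscle genes 1 was higher and 1 lower (4.17% each, against 4.44% and 3.25%), with a median difference of -0.62 and array medians, each gene first centred over the arrays, of -0.68 and -0.13 in VSKO against -0.16 and 0.64 in HEMI, so that the 2 groups overlapped. Of 21 genes of the mesonephric duct, rete and nephron 3 were lower (14.3%, against 3.25%), namely Sall1, Ret and the cadherin Cdh1, which differed by -0.90. Of 15 erythroid genes 2 were higher (13.3%, against 4.44%). The part of these tissues in the differences of Sall1 and Ret was not tested.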

How the data were processed

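RNA of 6 whole testes was measured on 1-colour Agilent arrays. The deposited files hold the authors' processed signal, a background-subtracted intensity on a linear scale, and quality flags of 0 or 1, which are another unit per the file headers. Those headers give the extraction modules as version 10.7.3.1, while the submitters' processing notes name Agilent Feature Extraction 8.5.1.1. Arrays carry no read depth, and 2 per group limit the precision.

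Control spots were left out, and each array's log2 signal was shifted by the 75th percentile of its other spots. The spots of a probe were averaged without outlier spots, except where all spots of the probe were outliers, which were then kept. Kept probes (34108) were well above background on both VSKO or both HEMI arrays, and the brightest probe stood for a gene. Names were updated through RefSeq tables of GRCm38.p6. All 6 arrays were fitted in limma 3.58.1 (R 4.3.3) with 3 residual degrees of freedom, with Benjamini-Hochberg adjustment, and the fit was tested on simulated data. A gene not well above background in a group has only a bound there. It compares the bright group's mean with the lowest well-above-background signal of the dim arrays, or with the dim probe's own signal where higher. Such a bound holds for the processed signal in this scaling and is no lower limit under another background treatment.

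Named were the 15 largest differences in each direction that passed, filled by genes at an unadjusted p under 0.005, up to 4 genes of each list, and a fixed set of testis genes; the remaining genes with a symbol that passed, and Akap4, Crem, Etv5, Foxo1, Hmgb1, Hormad1, Hoxb13, Hoxd10, Id4, Nanos3, Prm2, Sall4, Sap30, Syce3, Tnp1, Tubb3 and the neutrophil genes, were named after their values were seen. The members and lists were chosen with earlier results of these data known. The motif GTTGCC was added to 4 others after their matches had been seen.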

Additional observations from a re-analysis of the deposited data

How the results depend on the processing

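The count of 35 genes was 91 with median scaling, 91 with the values of the authors' series table, 17 with quantile normalization, 5 with no filter on dim probes, 1 with features above background on all 4 arrays and 0 with the VSKO and HEMI arrays alone. These values are the processed signal over the array's median, so both settings are the same scaling, and the 91 held all 35. Normexp background correction with the offset of 50 gave 31, of which 13 were among the 35. The intensity trend gave 45, of which 25 were. Testing each probe on its own, an alternative chosen after seeing the data, gave 33. With 1 array left out the count was 0 to 39. The labels do not say whether the replicate numbers pair the animals. Arrays of the same number shared no clear shift across genes (correlations of deviations -0.039, -0.029 and -0.008), which cannot tell whether they were paired. With the number as a replicate block the count was 0 (1845 at an unadjusted p under 0.05). With HEMI replicate 1 left out 27.3% of calls were higher in VSKO, against 71.4%. All 35 kept their direction under every alternative in which they could be tested, except that with no filter, where another probe stood for the gene, Iqcf4 was -1.07 and Olfr965 was 0.63. Scaling moved the median of all genes from 0.02 to between -0.05 and 0.02. Among single named genes, 52 values that had not passed differed in sign and still did not pass, 254 values fell short of a threshold they had passed and 27 passed one they had not. Dim probes limit most of the large differences, which are bounds within the main scaling only.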

Other observations

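A set of probes without a gene symbol stood out in the plot of difference against level. It was picked from its values (mean signal over 1.5, difference between -2 and -1.3), so it gets no test of its own. The 33 probes lie on 16 chromosomes and differed between VSKO and HEMI by -1.86 to -1.52, with adjusted p-values of 0.0783 to 0.169 in limma, so none passed. Their median signal was 3.01 and 2.61 on the VSKO arrays, 4.33 and 4.57 on the HEMI arrays and 4.44 and 3.86 on the WT arrays. Of the 33 probe sequences, 31 share a run of 14 bases with another of the set, and 24 share one with a probe named Hmgb1, a chromatin protein with many processed copies in the genome, so these are not 33 separate measurements.

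The probes named Hmgb1 split by their place in the transcript. The 3 probes that start at transcript bases 471, 520 and 633, which share runs with the set, differed by -1.54, -1.71 and -1.66. The other 5 kept Hmgb1 probes, which start at bases 754 to 2115 and share no such run with it, differed by -0.04, -0.02, -0.04, 0.00 and 0.06. The brightest of these stood for Hmgb1 among the genes tested.

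A single array or a single group stood apart for some genes, chosen here after their values were seen. Sap30, a member of the SIN3 complex, had a signal of 3.88 on HEMI replicate 2 and -0.58 on HEMI replicate 1, beside -0.77 and -0.72 in VSKO. Dnmt3l, a cofactor of DNA methylation in gonocytes, had signals of -0.13 and -0.10 in VSKO and -0.65 and -0.43 in HEMI, while WT had 1.85 and 1.45. A predicted gene without a symbol of its own, LOC100503910, had signals of 2.15 and 1.90 in HEMI and means of -3.76 in VSKO and -4.80 in WT.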
